A study of Chlamydomonas reinhardtii with 28 samples.

Results

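The 8 libraries of the plus mating type (mt+) strains CC-125 and CC-1690 were set against the 20 libraries of the minus mating type (mt-) strains CC-124, CC-1009, CC-1691, CC-4532 and CC-4533. Together they make up all 28 libraries of a survey of 7 laboratory WT strains of *Chlamydomonas reinhardtii*, a unicellular green alga. The mating type of each library was that of its strain. The comparison asked which genes had both mt+ strains on one side of all 5 mt- strains, and where those genes lie by gene ID. Each strain was represented by 4 biological replicate cultures, which received no treatment, were kept in Tris-acetate-phosphate medium in continuous light with shaking, and were collected in mid-logarithmic growth for sequencing of poly-adenylated RNA. CC-4532 supplied the genome to which the reads were mapped, and CC-4533 is the parent of a mutant library. A strain has only one mating type, so the comparison rests on 2 strains against 5, and mating type cannot be told apart from anything else that CC-125 and CC-1690 share.

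Mating type in *Chlamydomonas* is set by a locus on chromosome 6 whose plus and minus forms differ in gene content and do not recombine freely. The minus form carries MID1, a transcription factor gene that directs the minus sexual program, and MTD1, which acts in minus gametes. The plus form carries FUS1, which encodes a membrane protein that plus gametes need for fusion, and the genes of mating-type region a (MTA). Most genes of mating are switched on only when cells lose their nitrogen source and become gametes, whereas the cultures here were vegetative. The table of expression values, in FPKM, read fragments scaled to gene length and library size, lists genes of both forms, although the mapped genome is that of an mt- strain.

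Of the genes of the locus, MID1, FUS1 and several MTA genes followed the mating types of the strains. MTD1, NIC7 and THI10, given below, did not divide them library by library. Nearby in number, the untested genes Cre06.g253750, Cre06.g253800, Cre06.g253902 and Cre06.g254052 were above 0 in 3, 3, 4 and 2 of 8 mt+ libraries. In mt- they were above 0 in 11, 5, 5 and 1 of 20 libraries. Cre06.g253759 was above 0 in 1 mt+ library and in 0 mt- libraries. MID1 (Cre06.g800600) was listed at 0.05, 0, 0 and 0 FPKM in the cultures of CC-125 and at 0, 0, 0.08 and 0 FPKM in those of CC-1690. In the 20 mt- libraries MID1 ranged from 3.12 to 11.4 FPKM, with a median of 4.27 FPKM, and no library lay between the groups. Strain means of MID1 were 7.51 ± 2.7 FPKM in CC-124, 5.22 ± 2.0 in CC-4533, 4.12 ± 0.51 in CC-1009, 3.98 ± 0.56 in CC-4532 and 3.42 ± 0.24 in CC-1691 (SD, n = 4). CC-124 stood highest among them and CC-1691 lowest. FUS1 (Cre06.g252750) was listed at 0 in all 20 mt- libraries and above 0 in 7 of the 8 mt+ libraries, at no more than 0.1 FPKM. The MTA gene of region 1 (Cre06.g253000) was likewise at 0 in all 20 mt- libraries and above 0 in 6 of the 8 mt+ libraries, reaching 0.41 FPKM in CC-1690. These plus genes were barely transcribed, which kept them below the 1 FPKM that a strain mean had to exceed for a gene to be tested.

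Of 14785 genes tested, 56 were higher and 56 lower in both mt+ strains, 0.379% of the tested genes in each direction. A gene had to differ by significantly more than 2-fold (limma treat on log2(FPKM + 0.1), Benjamini-Hochberg adjusted p below 0.01) and to have both mt+ strain means beyond all 5 mt- strain means. Increases ran from 1.34 to 4.60 on the log2 scale with a median of 2.13, and decreases from -1.45 to -5.36 with a median of -1.91. In 39 of the 112 genes (19 higher, 20 lower) all 8 mt+ libraries lay outside the range of the 20 mt- libraries, a separation found in 1.11% of tested genes. Both criteria draw on the same values, so genes that passed are favoured for this separation. The test counts cultures as replicates and so measures the spread between cultures of a strain. With each library rescaled to the same summed FPKM, the split became 17 higher and 149 lower, as the median difference of all genes moved from 0.02 to -0.47 on the log2 scale. Summed FPKM ran from 733381 to 1319895 in mt+ libraries and from 480355 to 939527 in mt- libraries.

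When the 7 strains rather than the 28 cultures were the replicates, only MID1 differed by mating type, 0.00676% of tested genes. Its difference was -5.36 ± 0.327 on the log2 scale (SE over strains, limma adjusted p = 0.00411). At an unadjusted p below 0.05, 955 genes (6.46%) differed over strains. An exact permutation test of 2 strains against 5 has 21 splits, so its one-sided p, doubled, cannot go below 0.0952 for any gene. Without the filter on low values, 4 more genes passed over strains, namely FUS1, Cre06.g249450, Cre06.g252743 and Cre07.g800825, all higher in mt+. The filter had kept out FUS1 and Cre07.g800825. Cre06.g249450 and Cre06.g252743 had been tested with the filter too and did not pass over strains there. The 4 were singled out after their values were seen. Cre07.g800825 ran from 0.17 to 0.56 FPKM in mt+ and did not exceed 0.06 FPKM in mt- cultures. With a pseudocount of 1 or a filter at 5 FPKM, 0 genes passed over strains in limma, with 927 and 590 at an unadjusted p below 0.05. Without CC-125 or without CC-1690 0 genes passed, with 2377 and 1272, and without CC-4533 3 genes did.

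**Figure D1:**
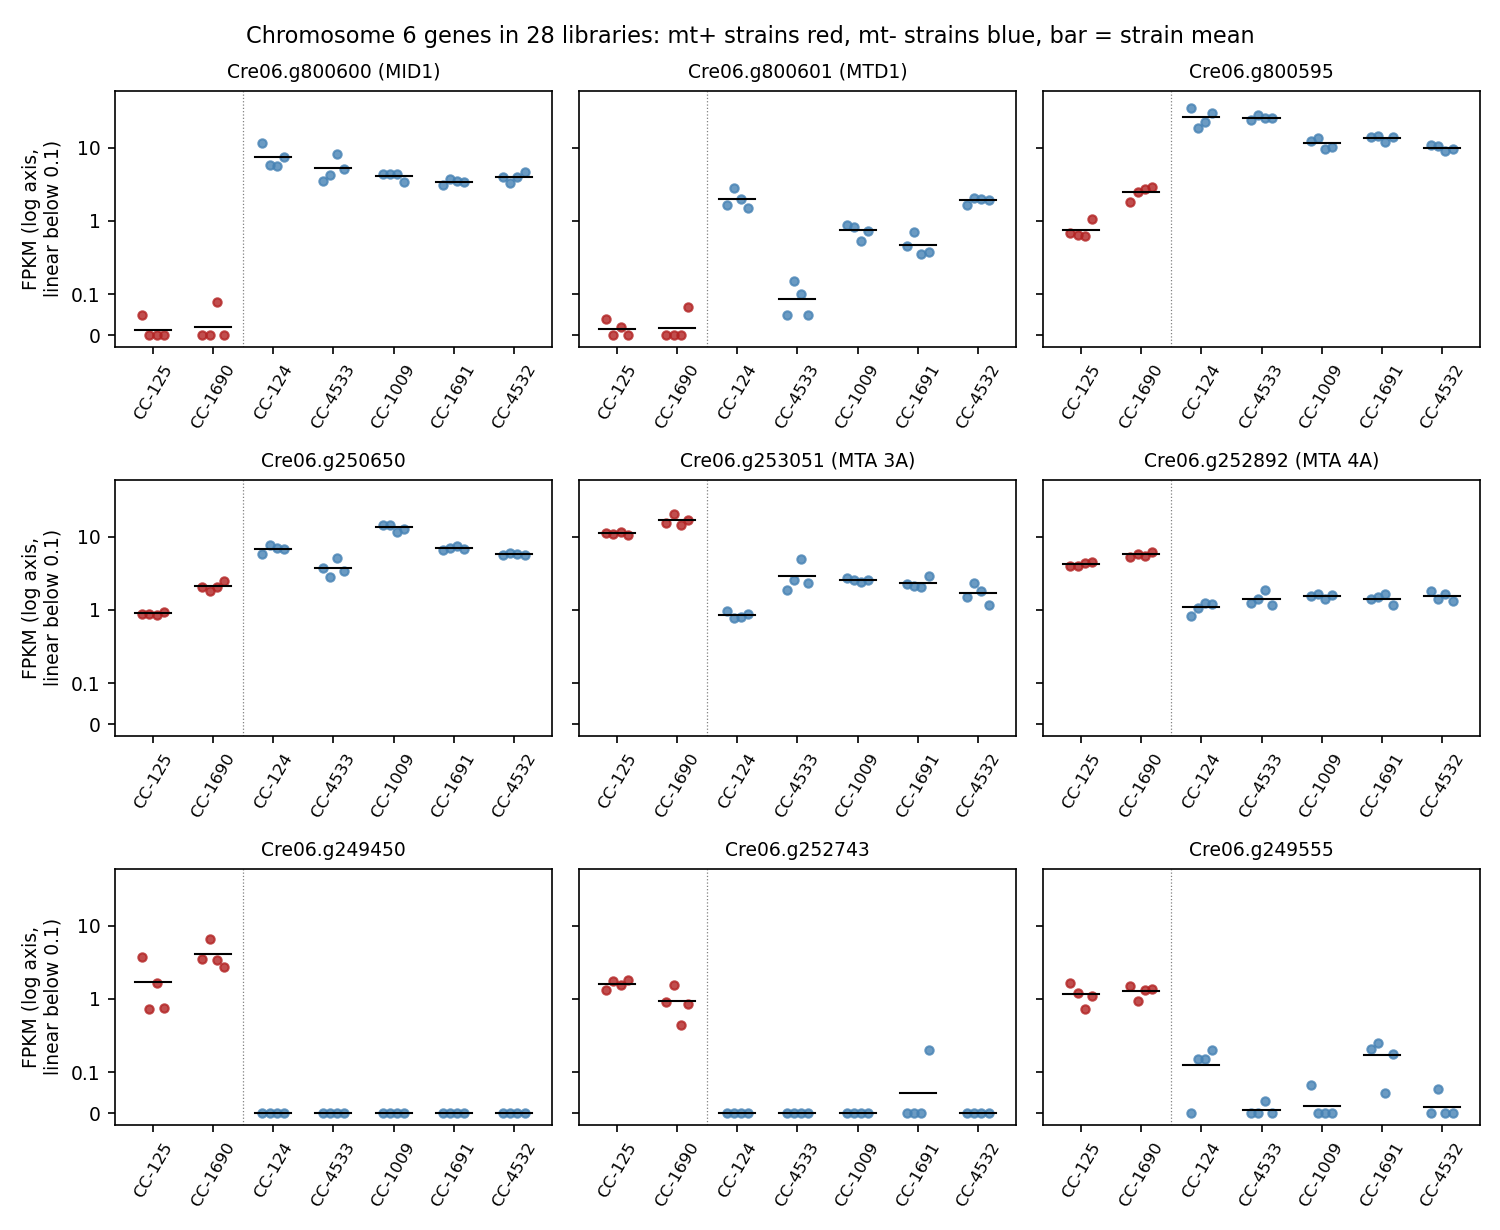
FPKM of 9 chromosome 6 genes in each of the 28 libraries (points; the axis is logarithmic above 0.1 FPKM and linear below), with mt+ strains in red, mt- strains in blue and a bar at each strain mean. In MTD1 the CC-4533 libraries sit near the mt+ libraries, while in MID1 all 20 mt- libraries lie at 3.12 FPKM or more.

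The other minus gene of the locus was less evenly divided. MTD1 (Cre06.g800601) was lower in mt+, by -2.83 ± 0.138 on the log2 scale (SE, limma treat adjusted p = 6.76e-11). It was listed at 0.04, 0, 0.02 and 0 FPKM in CC-125 and at 0, 0, 0 and 0.07 FPKM in CC-1690. It reached 1.98 ± 0.59 FPKM in CC-124, 1.92 ± 0.19 in CC-4532, 0.748 ± 0.16 in CC-1009 and 0.475 ± 0.16 in CC-1691, but 0.0875 ± 0.048 in CC-4533 (SD, n = 4). The CC-4533 libraries, at 0.05 to 0.15 FPKM, overlapped the mt+ libraries, so MTD1 was not separated by mating type library by library.

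The MTA genes of regions 3A and 4A were higher in every mt+ library than in any mt- library. Region 3A (Cre06.g253051) was listed at 11.2, 11, 11.51 and 10.59 FPKM in CC-125 and at 15.33, 20.17, 14.45 and 17.06 FPKM in CC-1690. The 20 mt- libraries ranged from 0.78 to 4.99 FPKM, with a median of 2.17 FPKM. The groups did not overlap, and the difference was 2.79 ± 0.12 (adjusted p = 6e-12, limma treat). Region 4A (Cre06.g252892) was at 3.97, 4.01, 4.31 and 4.5 FPKM in CC-125 and at 5.29, 5.82, 5.51 and 6.23 FPKM in CC-1690, against 0.84 to 1.86 FPKM in the mt- libraries. Again the groups were apart, by 1.75 ± 0.0797 on the log2 scale (adjusted p = 5.41e-08, limma treat). Neither gene was at 0 in an mt- library. A read that mapped to several places was kept at a random place, and whether this affected these genes was not tested. Region 5 (Cre06.g252871) had strain means of at most 0.105 FPKM and was not tested.

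Several genes without a symbol were also sharply divided by mating type. Cre06.g249450 was listed at 3.75, 0.74, 1.64 and 0.75 FPKM in CC-125, at 3.51, 6.62, 3.42 and 2.75 FPKM in CC-1690, and at 0 in all 20 mt- libraries. It was the only gene of the whole table at 0 in every mt- library and above 0 in every mt+ library, and no gene showed the opposite. Cre06.g252743 was at 1.33 to 1.81 FPKM in CC-125 and 0.44 to 1.55 FPKM in CC-1690. It was above 0 in 1 mt- library, a culture of CC-1691 at 0.2 FPKM. Cre06.g249555 ran from 0.74 to 1.63 FPKM in mt+ and stayed at or below 0.25 FPKM in mt- cultures. Cre06.g800587 had the same order, with 0.86 to 1.54 FPKM against no more than 0.28 FPKM. On the log2 scale these 4 genes differed by 4.60 ± 0.189, 3.60 ± 0.176, 3.12 ± 0.186 and 2.95 ± 0.20, differences that the added 0.1 FPKM makes smaller than the ratio of the values.

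Other genes of chromosome 6 were transcribed in both mating types but at unequal levels. Cre06.g800595 was listed at 0.68, 0.65, 0.62 and 1.05 FPKM in CC-125 and at 1.83, 2.51, 2.74 and 2.91 FPKM in CC-1690. The mt- libraries ran from 8.86 to 34.9 FPKM, with CC-124 (26.4 ± 7.4) and CC-4533 (25.5 ± 1.6) above CC-1691 (13.5 ± 1.0), CC-1009 (11.4 ± 1.8) and CC-4532 (9.92 ± 0.92) (SD, n = 4). The groups were apart and the difference was -3.44 ± 0.101 (adjusted p = 4.23e-16, limma treat). Cre06.g250650, defined as similar to a dynamin-like GTPase, a class of proteins that remodel membranes, was at 0.86 to 2.5 FPKM in mt+ and 2.85 to 14.6 FPKM in mt- libraries, a difference of -2.20 ± 0.0757. CC-4533 was the mt- strain nearest to the mt+ strains in this gene, at 3.76 ± 0.96 FPKM. Cre06.g250050 met the criteria as lower in mt+, at -2.50 ± 0.164, but was listed at 14.8 ± 1.1 FPKM in CC-4532, 1.16 ± 0.21 in CC-124 and at most 0.318 ± 0.078 in the other mt- strains. Its mt+ libraries, at 0 to 0.1 FPKM, overlapped those of CC-4533 and CC-1009, so this gene marked CC-4532 more than it divided the mating types. DTH1 (Cre06.g261400), named for delayed hydrolysis of triacylglycerol, was at 0.18 to 0.48 FPKM in mt+ and 0.72 to 2.58 FPKM in mt- libraries, a difference of -2.02 ± 0.11 with no overlap. MID1 alone in the table was at 1 FPKM or more in every library of one mating type and at 0.1 FPKM or less in every library of the other.

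By gene ID, the genes that differed lay on every chromosome, with the highest density at the low-numbered end of chromosome 6. All but 2 of the 112 genes carried the prefix of one of the 17 chromosomes. Chromosome 6 held 17 of them (1.31% of its 1300 tested genes) and chromosome 17 held 13 (1.42% of 913), against 0.758% of all tested genes. The count on chromosome 6 was 8 with a pseudocount of 1, where 30 genes were higher and 18 lower over all chromosomes. It was 9 with a filter at 5 FPKM (32 and 26) and 1 with strain as a random block (0 and 1). A test against no change with differences above 2-fold gave 29 (134 and 135). CC-1690 against the 4 mt- strains of its library set gave 67 (310 and 528), and CC-125 against CC-4533 gave 38 (357 and 86). Left out in turn, CC-1690, CC-125 and CC-4533 gave 52 (392 and 188), 49 (275 and 370) and 27 (87 and 180). The counts of 27 to 67 thus came with larger totals than the 112 of the main test. Whether the share of chromosome 6 changed was not tested. Leaving out single libraries gave 15 to 18. Chromosome 15 had 4 of 223 tested genes (1.79%). In runs of 50 consecutive listed genes, 265 of 339 runs held no gene that differed, 63 held 1, 8 held 2 and 3 held 3 or more. The run with most, 4 genes, was the lowest-numbered of chromosome 6, from Cre06.g248750 to Cre06.g251450, with Cre06.g249450 and Cre06.g249555 higher and Cre06.g250050 and Cre06.g250650 lower. The next run, Cre06.g251500 to Cre06.g254400, held 3, all higher in mt+, namely Cre06.g252743 and the MTA genes of regions 3A and 4A. Together these 2 runs held 7 of 79 tested genes (8.86%), while the rest of chromosome 6 numbered under 800000 held 4 of 1132.

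**Figure D2:**
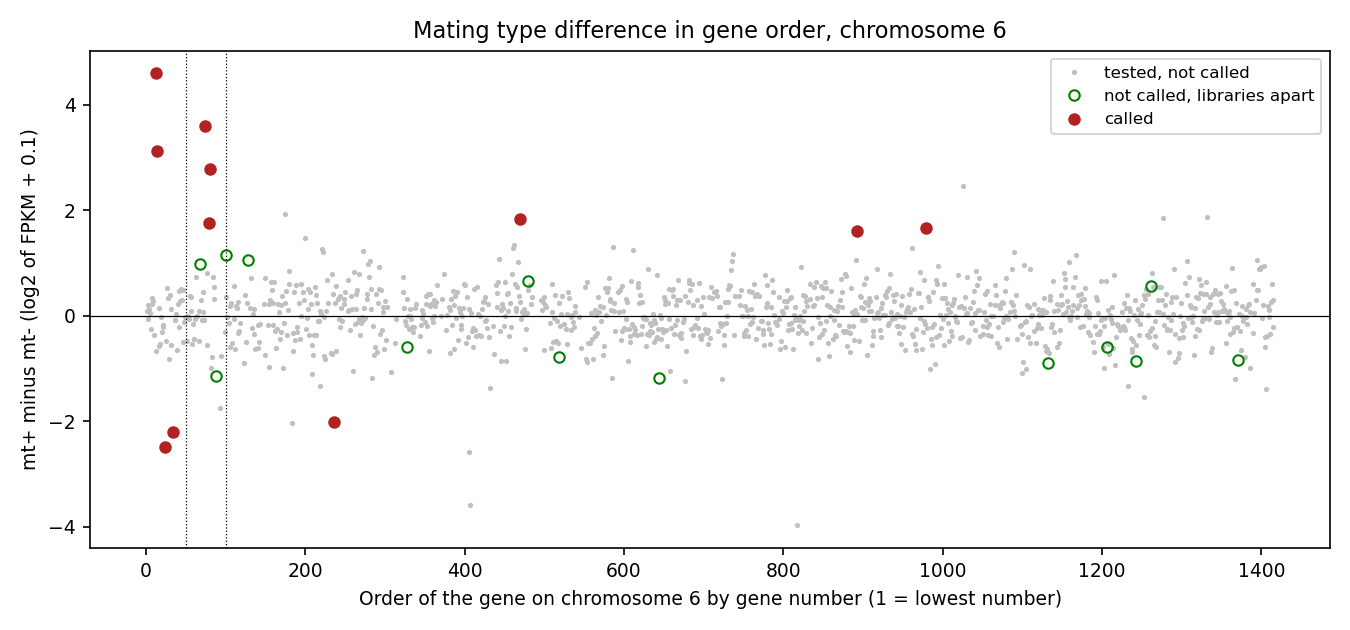
Difference between mt+ and mt- (log2 of FPKM + 0.1) of the tested genes of chromosome 6 numbered under 800000, in order of gene number. Filled red points are genes that passed the test. Open green points are genes that did not pass but whose mt+ and mt- libraries did not overlap. Dotted lines end the first and the second run of 50 genes. The 6 passing genes numbered 800000 and above, MID1 and MTD1 among them, are not drawn. Of the 11 red points, 7 lie before the second dotted line.

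The same stretch held genes that differed by less than the test required but were separated library by library. In the run from Cre06.g251500 to Cre06.g254400, 6 of 35 tested genes had all mt+ libraries outside the mt- range, against 1.11% of all tested genes. Beside the 3 named above they were FUM1, Cre06.g252401 and Cre06.g253755, which are named here because of where they lie. FUM1 (Cre06.g254400), the gene of fumarase, an enzyme of the tricarboxylic acid cycle, was at 106.69 to 112.17 FPKM in CC-125, 44.91 to 61.87 FPKM in CC-1690 and 29.3 to 40.3 FPKM in the mt- libraries. The 2 mt+ strains thus differed from each other more than CC-1690 did from the mt- strains, and the difference of 1.15 ± 0.0484 did not pass the test against 2-fold (limma adjusted p = 0.0806). Cre06.g252401, of unknown function, was at 30.6 to 46.7 FPKM in mt+ and 13.2 to 24.2 FPKM in mt- libraries. Cre06.g253755 was lower in mt+, at 1.12 to 1.36 FPKM against 2.0 to 4.44 FPKM. NIC7 (Cre06.g251450) and THI10 (Cre06.g255350), enzyme genes of nicotinate and thiamine synthesis that lie at the locus, were not divided. NIC7 was at 12.45 to 16.12 FPKM in CC-125, above every mt- library, and at 4.62 to 7.33 FPKM in CC-1690. THI10 was at 3.67 to 7.16 FPKM in mt+ and 5.53 to 10.7 FPKM in mt- libraries.

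Genes numbered 800000 and above, whose number need not follow position, made up 23 of the 112 genes (20.5%) and 8.19% of tested genes. On chromosome 6 they were 6 of 89 tested, namely MID1, MTD1, Cre06.g800587, Cre06.g800595, Cre06.g800744 and Cre06.g802347. Their place relative to the 2 dense runs cannot be read from the ID. Gene symbols were carried by 12 of the 112 genes (10.7%) and by 27.6% of tested genes, and a written definition by 19.6% and 39.9%. Whether these shares differ was not tested.

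**Figure D3:**
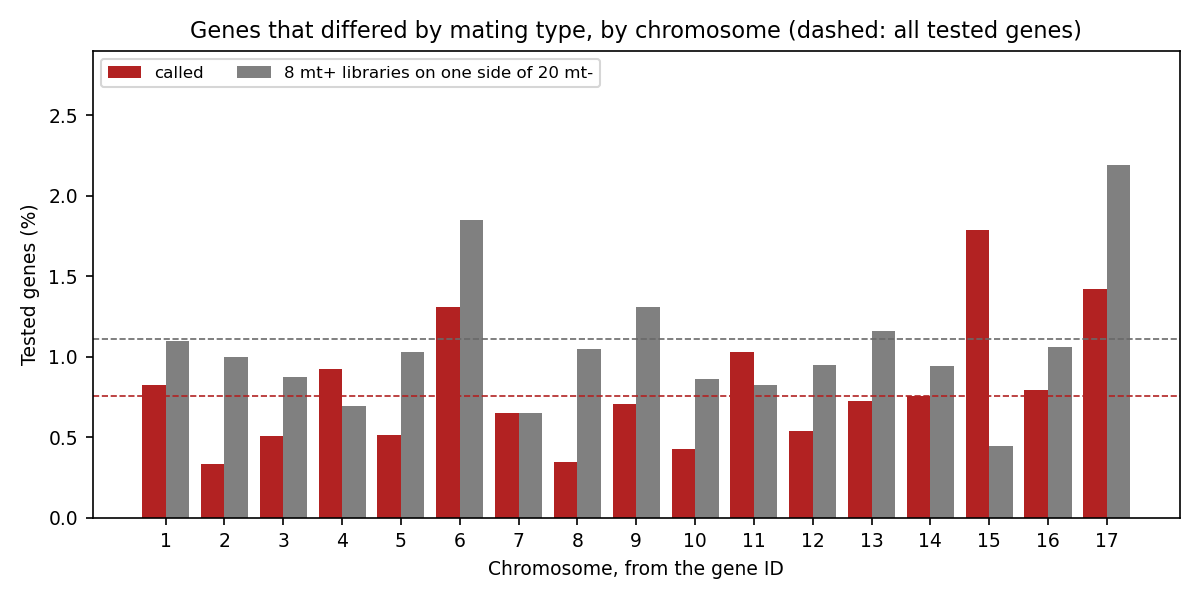
Percentage of tested genes on each of the 17 chromosomes that passed the test in either direction (red) and whose 8 mt+ libraries lay on one side of the 20 mt- libraries (grey), with dashed lines at the percentages over all tested genes (0.758% and 1.11%). Chromosomes 6 and 17 exceed both lines, and chromosome 15 exceeds the red line with 1.79% but not the grey line.

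Chromosome 17 had such genes in separate stretches of its numbering. From Cre17.g729600 to Cre17.g732200, 3 of 48 tested genes were lower in mt+ and none was higher, where 0.758% of all tested genes passed in either direction. Cre17.g731591 was at 0.93, 0.9, 0.98 and 1.22 FPKM in CC-125 and at 0.24, 0.49, 0.63 and 0.3 FPKM in CC-1690, against 2.23 to 23.2 FPKM in the mt- libraries. It was the largest decrease after MID1, at -3.69 ± 0.11 (adjusted p = 4.23e-16, limma treat), with CC-124 lowest of the mt- strains (2.96 ± 0.54 FPKM) and CC-1691 highest (21.7 ± 1.9 FPKM). Cre17.g731571 was at 2.16 to 3.14 FPKM in CC-125 and 0.5 to 0.7 FPKM in CC-1690, against 5.61 to 36.1 FPKM, a difference of -3.30 ± 0.0948. Cre17.g730483 differed by -2.13 ± 0.0988 at lower levels, with 0.08 to 0.55 FPKM against 0.64 to 2.93 FPKM. None of the 3 has a definition.

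At the low-numbered end of chromosome 17 the genes that rose were more highly transcribed. These genes passed the test with no overlap of libraries and are named after their values were seen. SCLB1 (Cre17.g703700), the beta chain of succinate-CoA ligase, the enzyme of the tricarboxylic acid cycle that forms succinate, was listed at 127.9, 151.32, 128.51 and 134.89 FPKM in CC-125 and at 100, 144.26, 113.88 and 118.82 FPKM in CC-1690. The mt- libraries ranged from 29.6 to 63.3 FPKM. All mt+ libraries were above them, by 1.38 ± 0.093 on the log2 scale (adjusted p = 0.00783, limma treat). Cre17.g704600 was at 42.8 to 70.3 FPKM against 14.4 to 24.1 FPKM, a difference of 1.53 ± 0.0833. Cre17.g700800 ran from 47.5 to 66.0 FPKM in mt+ and from 9.68 to 38.1 FPKM in mt- cultures, where CC-4532 (35.4 ± 2.7) stood above the other mt- strains (12.5 to 17.9 FPKM). Between Cre17.g701250 and Cre17.g704150, 5 of 40 tested genes had separated libraries, 3 higher in mt+ and 2 lower, against 1.11% of all tested genes.

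**Figure D4:**
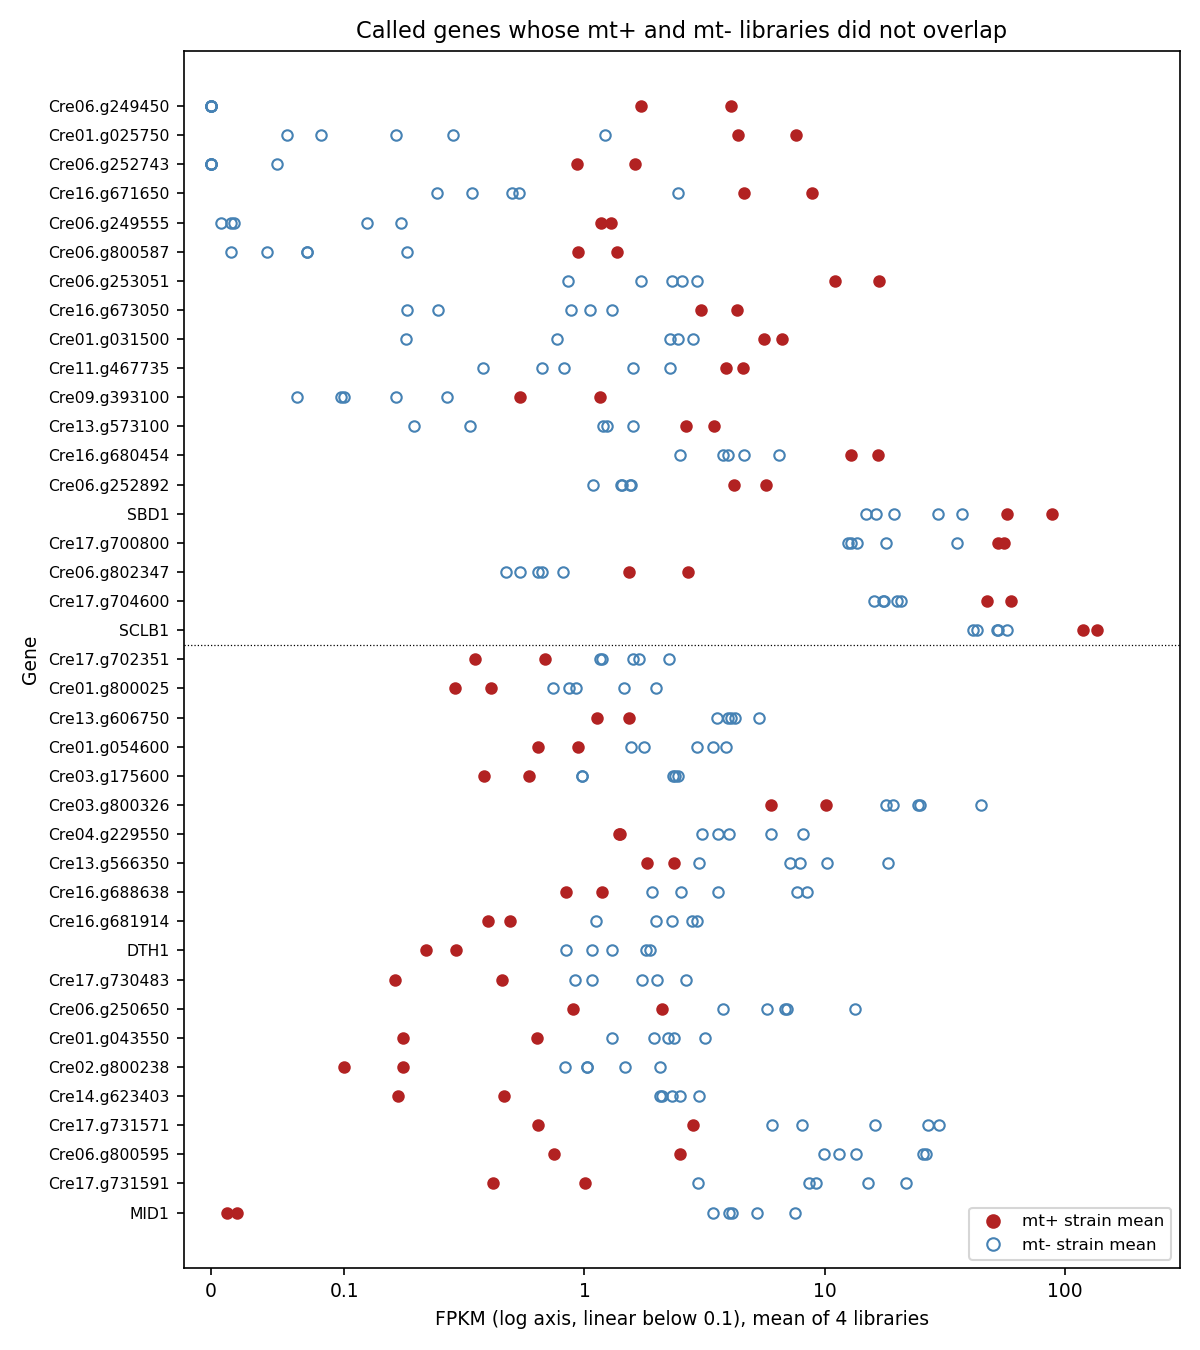
Strain means (FPKM, logarithmic above 0.1 and linear below) of the 39 genes that passed the test and whose mt+ and mt- libraries did not overlap, ordered by their log2 difference; filled red points are the 2 mt+ strains, open blue points the 5 mt- strains, and the dotted line divides the 19 higher genes from the 20 lower ones. Cre06.g249450 lies at 0 in all 5 mt- strains, and MID1 lies near 0 in both mt+ strains.

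Away from chromosomes 6 and 17, the largest increase in mt+ among genes with separated libraries was that of Cre01.g025750, which has no definition. Cre12.g512300 differed by more, 4.40, but its mt- strain CC-124 (34.8 FPKM) overlapped CC-125 (38.2 FPKM). Cre01.g025750 was listed at 2.24, 5.86, 4.97 and 4.27 FPKM in CC-125 and at 8.15, 8.7, 6.68 and 6.73 FPKM in CC-1690. In mt- libraries it ran from 0.02 to 1.63 FPKM, highest in CC-124 (1.22 ± 0.28, SD, n = 4). The groups were apart by 4.17 ± 0.186 (adjusted p = 3.84e-13, limma treat). Cre16.g671650 was at 4.3 to 10.6 FPKM against 0.11 to 2.77 FPKM, with CC-4532 (2.44 ± 0.41) nearest to the mt+ strains, and differed by 3.28 ± 0.135. Cre16.g673050, Cre01.g031500, Cre11.g467735 and Cre09.g393100 rose by 2.49, 2.22, 2.05 and 1.97. Cre13.g573100, defined as putatively involved in mitochondrial biogenesis, rose by 1.93 ± 0.124, from 0.13 to 1.82 FPKM in mt- to 1.89 to 4.19 FPKM in mt+ libraries. SBD1 (Cre03.g166050), a selenium-binding protein gene singled out among the genes with a symbol, was at 51.2 to 111 FPKM in mt+ and 13.7 to 41.0 FPKM in mt- libraries, 1.70 ± 0.126 higher.

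The nearest mt- strain differed among the genes. Of the 56 genes higher in mt+, CC-124 was the highest mt- strain in 23 and CC-4532 in 20, with 3 to 6 for each other mt- strain. Of the 56 lower genes, CC-4533 was the lowest mt- strain in 28 and CC-124 in 11.

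The largest decreases with separated libraries outside chromosomes 6 and 17 were at low levels. Cre14.g623403 was listed at 0.72, 0.2, 0.44 and 0.49 FPKM in CC-125 and at 0.17, 0.13, 0.19 and 0.18 FPKM in CC-1690. The 5 mt- strains had means of 2.07 to 2.98 FPKM, and its libraries were apart by -2.70 ± 0.129 (adjusted p = 6.87e-11, limma treat). Its unadjusted p over strains was 4.85e-05 (limma, adjusted p = 0.358). Cre02.g800238 and Cre01.g043550 fell by 2.59 and 2.33 on the log2 scale, each without overlap. Cre16.g681914 fell by 2.00 and ran from 0.27 to 0.54 FPKM in mt+ and from 0.64 to 3.23 FPKM in mt- libraries. Cre16.g688638, defined as an adenylate or guanylate cyclase, enzymes that make cyclic nucleotides, fell by 1.91 ± 0.108 and was at 0.78 to 1.35 FPKM against 1.66 to 8.7 FPKM. In the lower genes, 55.4% had no strain mean of 5 FPKM or more, as did 42.9% of the higher genes and 38.8% of all tested genes.

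Mating type crossed the library sets of the labels, in which CC-125 and CC-4533 form set 2 and the other strains form set 1. Set 1 thus compares CC-1690 with 4 mt- strains, and set 2 compares CC-125 with CC-4533. All 112 genes had the same sign in both sets, a direction that the requirement on strain means sets, and 46 of the 56 higher but 27 of the 56 lower genes exceeded 2-fold in both. MID1 differed by -5.30 in set 1 and -5.51 in set 2. The MTA gene of region 3A differed by 3.21 and 1.98, and Cre06.g800595 by -2.46 and -4.94. In set 2, 17 of the lower and 4 of the higher genes were within 0.5 of 0 on the log2 scale. Among them were Cre06.g250050 (-3.30 and -0.19) and the flagellar genes FAP212 (-3.50 and -0.08) and FAP310 (-3.49 and -0.38), each given for set 1 and then set 2. The size of the difference was unequal between sets for 37 higher and 42 lower genes (limma adjusted p below 0.05), and in 65.4% of all tested genes.

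**Figure D5:**
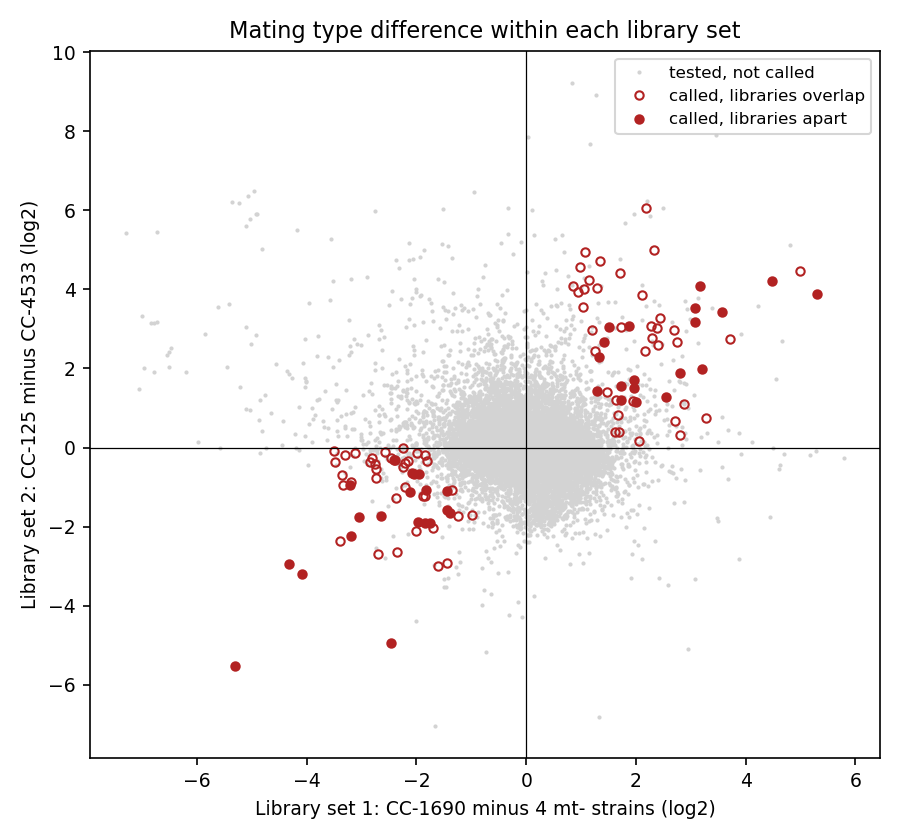
Difference between mt+ and mt- (log2 of FPKM + 0.1) of each tested gene within library set 1 (CC-1690 against 4 mt- strains, horizontal) and within library set 2 (CC-125 against CC-4533, vertical); filled red points passed the test with libraries apart, open red points passed with libraries overlapping, grey points did not pass. MID1 lies lowest on the left, at -5.30 and -5.51, and many open points sit near 0 on the vertical axis.

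FAP212 and FAP310, which encode flagellar proteins, were lower in mt+ chiefly through CC-1690. FAP310 had strain means of 39.4 FPKM in CC-1690, 291.8 FPKM in CC-125 and 371.3 to 709.2 FPKM in the mt- strains. FAP212 followed the same order, with 18.4 FPKM in CC-1690, 115.6 FPKM in CC-125 and 118.6 to 400.9 FPKM in the mt- strains. FAP79, an ankyrin repeat protein gene, was at 0.26 and 0.74 FPKM in the mt+ strains and 0.77 to 5.34 FPKM in the mt- strains. These 3 were the only members of 441 tested flagellar genes that passed, all lower. Their share, 0.68%, was near the 0.758% of all tested genes, and the median difference of the list was -0.07. In set 1, 145 of the 441 were above 0, and in set 2 267 were.

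Most genes of gametes and zygotes did not pass the test in these vegetative cultures. Of 41 tested genes found by symbol or by mating words in the definition, 2 passed as higher (the MTA genes of regions 3A and 4A) and 2 as lower (MID1 and MTD1), where 0.379% of all tested genes passed in each direction. All 4 are genes of the locus, and the median difference was -0.01 against 0.02 for all tested genes. The search also took in a few genes with similar symbols, such as those of metal transport proteins. GSP1 (Cre02.g109650), the homeobox gene that plus gametes carry into the zygote, was at 25.8 ± 1.5 FPKM in CC-1009 and 18.6 FPKM in CC-4532, both mt-, but at 0.36 FPKM in CC-1690. CC-125 stood at 9.85 FPKM and CC-4533 at 0.76 FPKM, so GSP1 varied among strains of either mating type. SAG1 (Cre08.g374250), the agglutinin gene of plus flagella, was at 0.68 to 1.5 FPKM in mt+ and 0.49 to 2.5 FPKM in mt- libraries. HAP2 (Cre16.g674852), the fusion protein gene of minus gametes, was at 0 to 1.05 FPKM in mt+ and 0.15 to 5.22 FPKM in mt- libraries. GSM1 (Cre08.g375400), the homeobox gene of minus gametes, did not exceed 0.27 FPKM in any library and was not tested. Cre12.g537611, a gene of a zygote-specific protein with a membrane anchor signal, belonged to CC-125 rather than to the mating type, at 51.63 to 64.87 FPKM in that strain and at most 0.32 FPKM in the other 24 libraries.

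Of 15 gene lists, 12 had no member that passed, where only 0.758% of all tested genes passed. In 8 lists the median differences of the 2 library sets had opposite signs. No gene of the cytosolic ribosomal proteins passed the treat test of limma, and 0 had an unadjusted p below 0.05, yet 71 of 74 were above 0, with a median difference of 0.63 on the log2 scale. Against no change rather than 2-fold, 70 were higher and 1 lower (limma adjusted p below 0.05), as were 4875 and 4395 of all tested genes. In set 1 this was 73 of 74 genes with a median of 1.14, and in set 2 it was 0 of 74 with a median of -0.53, and CC-4533 and CC-1690 were the strains with the highest values. Pherophorins and other cell wall genes had a median of -0.43 over 88 genes, of -1.15 in set 1 and of 0.54 in set 2, and 0 of them passed although 21 (23.9%) had an unadjusted p below 0.05, as did 4.15% of all tested genes (limma treat). Photosystem and antenna genes were above 0 in 43 of 43 genes with a median of 0.63, in 43 in set 1 and in 30 in set 2, and all 43 were higher against no change. After rescaling to the same summed FPKM their median was 0.13, against -0.46 for all tested genes. LHCBM1, a major light-harvesting antenna gene, was the 1 gene of that list with separated libraries, which 1.11% of all tested genes had. It was at 20087 to 35642 FPKM in mt+ and 7890 to 19185 FPKM in mt- libraries.

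Relative depth varied with library set. Summed FPKM did not separate the sets, at 480355 to 1319895 in set 1 and 733381 to 939527 in set 2. The absolute depth is unknown because no counts were analysed, and relative depth read from the steps of low FPKM values was 0.645 to 1.201 in set 1 and 1.325 to 2.027 in set 2. Between 16121 and 16594 genes were above 0 in each library. Replicates of a strain correlated at 0.983 or more except for replicate 3 of CC-4533, which stood apart (lowest correlation 0.946). Without that library 60 genes were higher and 59 lower.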

How the data were processed

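Poly-adenylated RNA of 28 cultures was sequenced in single-end reads of 50 nt. The authors aligned them with STAR to the v6.1 assembly of CC-4532, counted them per gene and by strand with featureCounts, and deposited FPKM values per library, calculated with DESeq2 and rounded to 2 decimals. A second deposited table of strain means was not used. Values were analysed as log2(FPKM + 0.1) in limma 3.58.1 (R 4.3.3) with trended variances, over genes with a strain mean above 1 FPKM. The contrast was the mean of the 2 mt+ strains minus the mean of the 5 mt- strains, tested over 28 cultures against 2-fold, or over 7 strain means against no change. Members, gene lists and tests were chosen with earlier results of these data known. Genes named are the passing or listed genes of the mating locus, the 12 largest changes in each direction with separated libraries, the passing genes of the densest run of 50 genes by number, and genes expressed in one mating type only. Other genes named were chosen after their values were seen or for where they lie, also where the text does not say so. Whether the cultures were grown independently is not stated beyond their being inoculated as 2 batches of 2 flasks (set 1 strains) or 1 batch of 4 (CC-125, CC-4533). No genome of the mapped build was used, and no coordinates are given. RefSeq v5.5 held 15386 of the 17611 gene numbers and added no symbol to a gene that passed. The script was tested on simulated data.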

Additional observations from a re-analysis of the deposited data

Results flagged for a closer look

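Within each strain, 1 of 4 replicate libraries stood far from the other 3 in 31 of 224 sets of values of the named genes. Chance gives about 1 in 20 for normally distributed values. Where the other 3 libraries were at 0, as for MID1 in CC-125, any value above 0 was flagged, so that rate does not apply. All 9 of these in CC-4533 were its replicate 3. That library was the highest of its strain for HAP2 (5.22 FPKM against 0.61 to 1.26), Cre01.g025750 (0.45), Cre16.g673050 (1.91 against 0.47 to 0.62), Cre17.g731591 (12.01 against 7.02 to 7.68), Cre14.g623403 (3.86), Cre16.g681914 (2.39), Cre16.g688638 (5.79 against 2.63 to 2.97), Cre06.g249555 (0.03) and Cre06.g250050 (0.22). Without it, 60 genes were higher and 59 lower. The other such values were spread over strains. In CC-125 they were MID1 (0.05), Cre01.g031500 (4.32), Cre06.g800595 (1.05) and Cre16.g688638 (0.99). In CC-1690 they were NIC7 (7.33), MID1 (0.08), MTD1 (0.07), Cre17.g731571 (0.5), Cre17.g730483 (0.08), Cre16.g681914 (0.37) and Cre06.g250050 (0.04). In CC-1009 they were MID1 (3.35), Cre06.g249555 (0.07), Cre06.g800587 (0.17), Cre11.g467735 (2.09) and Cre09.g393100 (0.02). In CC-1691 they were Cre06.g252743 (0.2), Cre16.g671650 (0.83) and DTH1 (2.58), in CC-4532 THI10 (6.34) and Cre06.g249555 (0.06), and in CC-124 Cre06.g250050 (0.84), all in FPKM.

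For 18 of 27 named genes that passed, the difference between mating types was unequal in the 2 library sets (limma test of the difference, adjusted p from 4.05e-10 to 0.0334). The same held for 65.4% of all tested genes (limma adjusted p below 0.05). Each of the 18 kept its sign, which the requirement on strain means sets. Given as the log2 difference of set 1 minus that of set 2, genes higher in mt+ were larger in set 1 for Cre06.g249450 (1.42), Cre01.g031500 (1.25) and the MTA genes of regions 3A (Cre06.g253051, 1.23) and 4A (Cre06.g252892, 0.46). They were larger in set 2 for Cre13.g573100 (-1.55), Cre09.g393100 (-1.25), Cre11.g467735 (-1.20) and Cre06.g252743 (-0.93). Genes lower in mt+ fell further in set 1 for Cre06.g250050 (-3.11), MTD1 (-2.68), Cre01.g043550 (-2.25), Cre17.g731591 (-1.37), Cre02.g800238 (-1.29), Cre16.g681914 (-1.01), Cre14.g623403 (-0.95), Cre17.g730483 (-0.90) and Cre17.g731571 (-0.89), and further in set 2 for Cre06.g800595 (2.48). Library set cannot be told apart from the strains that make it up.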

How the results depend on the processing

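The counts of 56 higher and 56 lower genes became 30 and 18 with a pseudocount of 1, 32 and 26 with a filter at 5 FPKM, and 17 and 149 after rescaling to equal summed FPKM. A moderated test against no change, keeping differences above 2-fold, gave 134 and 135. Testing each of the 10 strain pairs gave 13 and 15, of which 9 and 12 were among the 112 genes, and strain as a random block gave 0 and 1 (MID1). Library set 1 alone gave 310 and 528 and library set 2 alone 357 and 86, as fewer strains had to agree. Leaving out 1 library or 1 strain gave 49 to 392 higher and 48 to 370 lower genes. The extremes came without a strain, 392 and 188 without CC-1690, 275 and 370 without CC-125, 108 and 74 without CC-4532 and 87 and 180 without CC-4533. Leaving out single libraries gave 49 to 60 and 48 to 64. Over strains, 1 gene became 0 with a pseudocount of 1 or a filter at 5 FPKM, 5 without a filter, and 0 to 3 without 1 strain. The 3 without CC-4533 were MID1, FAP41 and Cre09.g398250. A pseudocount of 0.01, quantile normalization and an adjusted p of 0.05 left the counts within 1.5 times. The replicate block gave 55 and 56, and 12 of 84 same-numbered pairs of libraries correlated above 0.1, so numbers did not pair cultures.

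No difference of a gene that passed changed sign under any alternative run. For a library set alone or a strain left out, the requirement on strain means sets that direction. Among the named genes that did not pass, GSP1 (-1.09) was 3.65 in set 2 alone and from -3.32 to 1.13 with 1 library or strain left out. NIC7 (-0.05) was 0.77 in set 2 alone and from -0.76 to 0.66 with 1 left out, and HAP2 (-0.44) ran from -1.76 to 0.89. SAG1 (0.00) was -0.0182 with a pseudocount of 1, -0.44 after rescaling, -0.0328 in set 1, -0.69 in set 2, -0.28 with library set as a covariate, and from -0.27 to 0.28 with 1 library or strain left out. The absolute depth is unknown, so no counting error is given, and differences at low FPKM are the least certain.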

Other observations

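FAP41, a flagellar protein gene, and Cre09.g398250 were low in both mt+ strains and in CC-4533 and high in the other 4 mt- strains. FAP41 ran from 0.45 to 3.31 FPKM over the 8 mt+ cultures and averaged 0.38 FPKM in CC-4533, against 111.7 FPKM in CC-4532, 116.7 FPKM in CC-124, 200.3 FPKM in CC-1009 and 334.3 FPKM in CC-1691. Cre09.g398250 ran from 1.04 to 4.18 FPKM over the mt+ cultures and averaged 0.175 FPKM in CC-4533 and 42.6 to 93.3 FPKM in the other mt- strains. Both passed over strains only when CC-4533 was left out, so they did not follow mating type.

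Genes with separated libraries that did not pass the test against 2-fold included enzymes and an assembly factor, chosen here after their values were seen. They were higher in mt+ by 1.06 for COX15, a cytochrome c oxidase assembly factor, 0.76 for MSD1, a manganese superoxide dismutase, 0.75 for ADH1, an alcohol and acetaldehyde dehydrogenase, and 0.61 for PFK2, a phosphofructokinase. The axonemal dynein heavy chain genes DHC11 and DHC12 were lower, by -0.97 and -0.90. The limma treat adjusted p of each was 1.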
